A study of Homo sapiens with 3 samples.

Results

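PC3 and LNCAP are established human prostate cancer cell lines, and the comparison described here set the PC3 library against the LNCAP library across all genes. These are 2 of the 3 libraries of the series, 1 per line, and 18025 of the 58735 annotated genes were compared, those that reached a library-scaled level of 1 CPM in at least 1 of the 3 libraries. The series design labels LNCAP as androgen-dependent prostate cancer and PC3 as castration-resistant prostate cancer, together with the third line, DU145, whose counts are given beside some results. The labels name no treatment, genotype or time point for any line. All 3 lines grew in medium with 10% serum, and the labels list several media without saying which line had which. LNCAP was derived from a lymph node metastasis and PC3 from a bone metastasis, so each line stands for 1 patient's tumour. A difference between these libraries cannot be told apart from a difference between donors, culture media or preparations.

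The libraries were of nearly equal size, at 15393103 counts (LNCAP), 15319045 counts (PC3) and 15878546 counts (DU145). Mitochondrial genes took 7.97% of the LNCAP counts and 4.35% of the PC3 counts. Levels are counts scaled by library size and TMM factor. Each fold is a ratio of scaled counts given with an exact 95% Clopper-Pearson interval of the conditional binomial share, which covers counting error only. A gene was called when it was at least 4-fold apart and its interval excluded a ratio of 1. Where a library had 0 counts, the fold is a lower bound computed with 3 counts in that library. With 1 library a side there is no replicate check and no test of the lines. By this rule 2344 genes (13.0%) were higher in PC3, 2402 (13.3%) were lower and 26.3% were apart in either direction. The median log2 ratio of all compared genes was -0.006. Equal counts in PC3 and LNCAP, 0 and 0 included, give a log2 ratio of 0.03 through the scaling alone. A median of 0.03 below is therefore that of equal counts. Each gene list below is read against these shares, and a list member that reached 1 CPM only through the library where it was high had to differ. The lists are therefore described by counts and medians without a test.

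The genes that identify the lines went with the labels. KLK3, which encodes prostate-specific antigen, had 35507 counts in LNCAP and 0 in PC3, and KLK2 had 5601 and 0. PC3 is known to have lost intact CTNNA1, the alpha-catenin gene, which had 5664, 33 and 7934 counts in LNCAP, PC3 and DU145 and was lowest in PC3. It is not known whether reads were assigned by strand. Many of the genes named below overlap another gene model, and those whose neighbour is a protein-coding gene are pointed out for the main examples.

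Markers of other cell types were read beside this check. Of 22 markers of fibroblast, muscle, endothelial, immune, blood and liver cells, 7 reached the level for comparison, 4 were higher in PC3 and 1 was lower. Their counts summed to 276 for LNCAP, 942 for PC3 and 75 for DU145, and 6, 9 and 9 markers stood at 0. The endothelial genes PECAM1 (0 counts in LNCAP, 307 in PC3) and KDR (1 and 290) and the collagen gene COL3A1 (31 and 239) held most of the PC3 sum. VWF, another endothelial gene, went the other way, with 144 counts in LNCAP and 1 in PC3, and the endothelial cadherin gene CDH5 had 2 and 0. The T cell gene CD3E, the B cell gene MS4A1, the globin gene HBB and the fibroblast gene LUM had 0 counts in both libraries. The part of these markers in the results below was not tested.

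**Figure D1:**
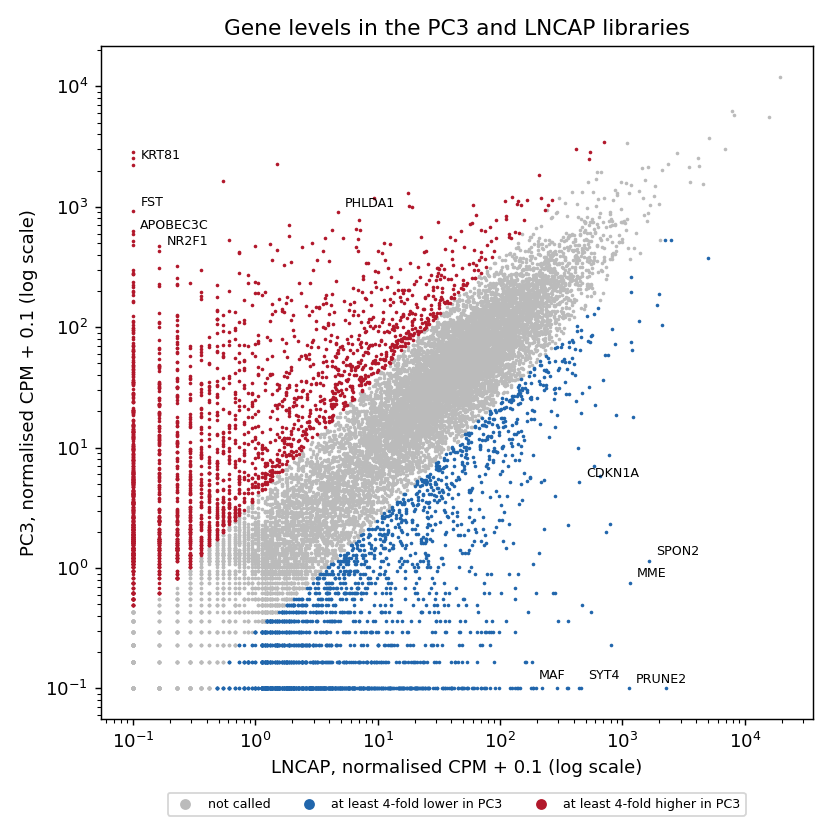
Level of each compared gene in LNCAP (x axis) and PC3 (y axis), in TMM-normalised CPM with 0.1 added, on log scales; 1 point is 1 gene and Y-linked genes are left out. Of 18025 genes, 2344 were at least 4-fold higher in PC3 (red) and 2402 lower (blue), and the named genes lie far from the diagonal, several of them at 0 counts in 1 library.

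Among non-coding genes, a pair of related microRNA host transcripts was exchanged between the libraries. A microRNA is a short RNA that guides the silencing machinery to messages that pair with its seed, bases 2 to 8 of the mature strand. Many microRNAs are cut from longer host transcripts, and the miR-99/100, let-7 and miR-125 families occur together in clusters inside such hosts. MIR99AHG (ENSG00000215386, chromosome 21, 15928296 to 16645065) had 753 LNCAP counts, 0 in PC3 and 0 in DU145, and was at least 245-fold lower in PC3. MIR100HG (ENSG00000255248, chromosome 11, 122028327 to 122556721) had 0, 2534 and 67 counts, and was at least 864-fold higher in PC3. The libraries therefore read 1 host each, LNCAP the first and PC3 the second. These hosts carry microRNAs that are nearly alike, shown here 5′ to 3′ as RefSeq gives them, with the seed in capitals, because the exchange of hosts is between clusters of the same families. The first 3 lie in MIR99AHG on the plus strand (GRCh38.p14, chr21:16539101-16539122, chr21:16539838-16539859 and chr21:16590253-16590274) and the next 3 in MIR100HG on the minus strand (chr11:122152275-122152296, chr11:122146568-122146589 and chr11:122099809-122099830).
miR-99a-5p: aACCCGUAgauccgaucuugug
let-7c-5p: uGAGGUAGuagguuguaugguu
miR-125b-5p: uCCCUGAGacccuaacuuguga
miR-100-5p: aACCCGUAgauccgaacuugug
let-7a-5p: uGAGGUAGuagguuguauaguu
miR-125b-5p: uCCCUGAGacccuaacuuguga
All 6 are 22 bases long. miR-99a-5p and miR-100-5p differ by U16A, counted from the 5′ end with the base of miR-99a-5p first, and let-7c-5p and let-7a-5p differ by G19A. The mature miR-125b-5p is the same from either host. The seed is shared within each of the 3 pairs. Mature microRNA levels were not measured, and these counts are of the host transcripts.

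Other microRNA hosts were also apart, and like the pair above they were chosen after their values were seen. Of 23 named microRNA host genes with a match in the microRNA table, 8 were higher in PC3, 9 were lower and 6 were not called. Over all compared genes 13.0% were higher and 13.3% lower. Most of these hosts are annotated as lincRNA genes, of which 23.0% were higher and 24.5% lower. A host that reached 1 CPM only through the library where it was high had to differ, so the counts describe these hosts only. MIR34AHG, host of miR-34a, had 306 LNCAP counts, 9 in PC3 and 43 in DU145, and was 33.2-fold lower in PC3 (17.3 to 73.4). Its mature miR-34a-5p is shown because it is a widely studied tumour suppressor microRNA (chr1:9151735-9151756, minus strand).
miR-34a-5p: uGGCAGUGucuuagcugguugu
MIR193BHG had 101 counts in LNCAP and 1 in PC3. In the other direction MIR137HG had 0 and 308 counts, MIR31HG 0 and 99, MIR503HG 5 and 376, and MIR222HG, the host of miR-221 and miR-222, 28 and 308. The host of the miR-17 to miR-92 cluster, MIR17HG, was level at 63 and 67 counts. MIR137HG overlaps DPYD on the same strand, so its reads are uncertain.

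**Figure D2:**
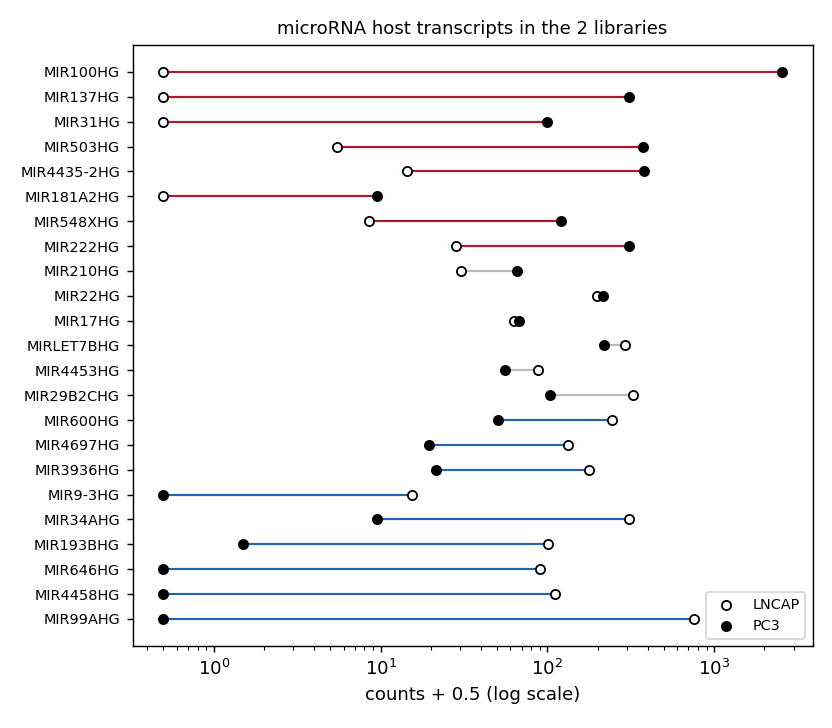
Counts of 23 microRNA host genes in LNCAP (open circles) and PC3 (filled circles), with 0.5 added, on a log scale; red lines mark genes at least 4-fold higher in PC3, blue lines lower and grey lines not called. MIR100HG (0 and 2534 counts) and MIR99AHG (753 and 0) stand at opposite ends.

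CDKN1A (chromosome 6, 36676460 to 36687339), the p21 inhibitor of cell cycle kinases, had 6919 LNCAP counts, 77 in PC3 and 863 in DU145. It was 87.9-fold lower in PC3 (70.2 to 111), which had the fewest counts of the 3 libraries. BTG2, an antiproliferative gene, had 915 counts in LNCAP and 22 in PC3, 40.7-fold lower (26.7 to 65.2).

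The following genes were named singly after their values were seen. ABCA12, a lipid transporter gene, had 1761 counts in LNCAP and 4 in PC3, 430-fold lower (168 to 1582). SPATA18, a mitochondrial quality control gene, had 252 and 1 counts, 246-fold lower (43.8 to 9770). The death receptor gene FAS had 193 and 20 counts, whereas TNFRSF10B, another death receptor gene, had 4401 and 2297 and was not called. TRIM22 had 123 and 3 counts, the decoy receptor gene TNFRSF10C 28 and 2, and the sestrin gene SESN1 940 and 127. In the other direction, PMAIP1, which encodes the cell death protein NOXA, had 297 counts in LNCAP and 1996 in PC3, 6.87-fold higher (6.08 to 7.79). GADD45A, a damage response gene, had 438 and 1885, 4.40-fold higher (3.96 to 4.90). The cell death gene BAX was level at 674 and 715 counts.

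The growth signalling cascade from RAS to ERK, the MAPK pathway, induces its own inhibitors and a set of transcription factors, and these transcripts are used as a readout of pathway output. Of 30 compared genes in that list, 21 were higher in PC3 (70.0%, beside 13.0% of all genes), 1 was lower and 8 were not called, with a median log2 ratio of 3.05. The ETS factor gene ETV4 had 12 LNCAP counts, 3584 in PC3 and 425 in DU145, 305-fold higher in PC3 (175 to 592). Its relative ETV5 had 7, 1917 and 1312, 280-fold higher (136 to 698). The chromatin architecture gene HMGA2 (chromosome 12, 65824131 to 65966295) had 0, 3075 and 114, at least 1048-fold higher. PC3 was the highest of the 3 libraries in each of these genes.

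Immediate early and feedback genes followed the same direction. IER3 had 3 counts in LNCAP and 3562 in PC3, 1214-fold higher (415 to 5891). PHLDA1 had 72, 13763 and 4360 counts in LNCAP, PC3 and DU145, 195-fold higher in PC3 (155 to 250.01). The ephrin receptor gene EPHA2, a known ERK target, had 294, 15083 and 4969, 52.5-fold higher (46.7 to 59.1). Among the phosphatases that switch MAP kinases off, DUSP6 had 8 counts in LNCAP and 1174 in PC3, 150.1-fold higher (75.9 to 348), and DUSP4 had 933 and 15702, 17.2-fold higher (16.1 to 18.4). The inhibitor gene SPRY2 had 20 and 879 counts, 44.95-fold higher (28.9 to 74.0). The early response factor EGR1 went against the list, with 48 LNCAP counts, 4 in PC3 and 1700 in DU145, 11.7-fold lower in PC3 (4.30 to 44.8). DUSP1, SPRY1 and ETV1, with 502, 1062 and 3589 counts in LNCAP, had 285, 497 and 1189 in PC3 and were not called.

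**Figure D3:**
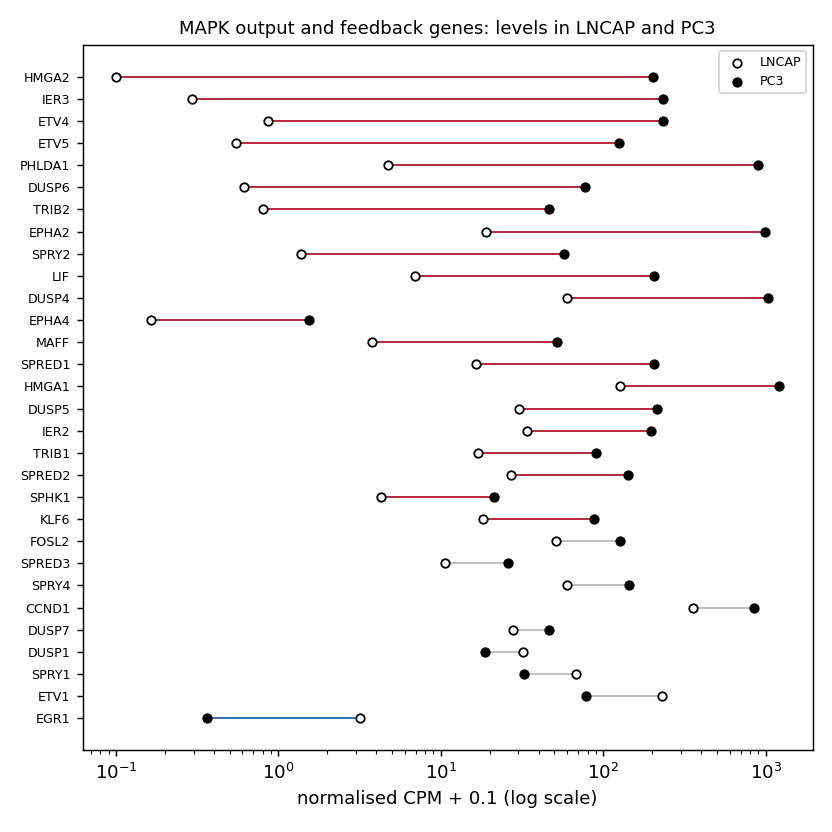
Level of each compared member of the MAPK list in LNCAP (open circles) and PC3 (filled circles), in TMM-normalised CPM with 0.1 added, on a log scale; red lines mark genes at least 4-fold higher in PC3, blue lines lower and grey lines not called. Of 30 genes 21 were higher in PC3 and 1 was lower.

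In the PI3K pathway, which drives growth and survival, 5 of 27 compared genes were higher in PC3 and 4 were lower, with a median log2 ratio of -0.41. Its members did not move in 1 direction. The kinase genes AKT1, at 3194 and 1707 counts in LNCAP and PC3, and AKT2, at 3730 and 2125, were not called. PREX1, which encodes a lipid-activated exchange factor for RAC, had 1, 737 and 84 counts in LNCAP, PC3 and DU145, 754-fold higher (135 to 29812). The adaptor gene IRS1 had 515 and 2712, the catalytic subunit gene PIK3CA 208 and 920, and RICTOR, a component of the second mTOR complex, 496 and 2208. The regulatory subunit gene PIK3R1 was lower, with 1475 and 140 counts, 10.3-fold (8.66 to 12.3), as were the haematopoietic-type catalytic gene PIK3CD (1272 and 249) and the mTOR inhibitor gene DEPTOR (172 and 21). PIK3CA and RICTOR overlap other gene models on the opposite strand.

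Secreted signals set PC3 apart. Of 64 growth factor and cytokine genes in the list, 50 were compared, 32 were higher in PC3 (64.0%) and 5 were lower, with a median log2 ratio of 4.22, or 4.13 with members at 0 counts set to their bound. For 17 of the 32, LNCAP had at most 3 counts. INHBA (chromosome 7, 41667168 to 41705834), which encodes the subunit of activin A, had 4 LNCAP counts, 3010 in PC3 and 2 in DU145, 770-fold higher in PC3 (300.3 to 2826). INHBB, the subunit gene of activin B, had 65, 2892 and 2, 45.5-fold higher (35.6 to 59.1). The activin-binding protein follistatin is encoded by FST (chromosome 5, 53480409 to 53487134), which had 0, 14009 and 9 counts and was at least 4776-fold higher. The ligand genes and their antagonist were thus all high in PC3 and near 0 in DU145.

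Among the other ligands, TGFB1 had 2 LNCAP counts, 1607 in PC3 and 1874 in DU145, 822-fold higher in PC3 (227 to 6792), and TGFB2 had 13, 933 and 696, 73.4-fold higher (42.7 to 138). VEGFC, a lymphatic growth factor gene, had 0, 996 and 160, at least 340-fold higher. The fibroblast growth factor gene FGF2 had 9 counts in LNCAP and 1222 in PC3, and FGFBP1, whose product releases such factors from the matrix, had 0 and 742. The cytokine gene IL18 had 4 and 1064 counts, and IL33, an alarmin gene, had 0 in LNCAP, 230 in PC3 and 0 in DU145. The 5 lower ligands included the chemokine gene CXCL16 (1219 and 111 counts, 10.7-fold, 8.84 to 13.2), the cytokine gene IL32 (558 and 28) and the insulin-like growth factor gene IGF1 (50 and 0).

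PC3 came from bone, and genes known from bone metastasis were listed for that reason. Of 35 such genes, 24 were compared, 13 were higher in PC3 (54.2%, beside 13.0% of all genes) and 4 were lower (16.7%, beside 13.3%). The median log2 ratio was 2.77, or 2.39 with bounds. It was 1.82 with no filter on low counts and 1.56 on FPKM with 0.1 added. PTHLH, which encodes the hormone-related peptide that stimulates bone resorption, had 2 LNCAP counts, 379 in PC3 and 47 in DU145, 194-fold higher in PC3 (53.3 to 1606). NOG, the gene of the bone morphogenetic protein antagonist noggin, had 0, 1599 and 31, at least 545-fold higher. CTGF had 8, 3025 and 575 counts, 387-fold higher (196 to 897), and the matrix gene TNC 25, 5064 and 2783, 207-fold higher (140.2 to 320.4). TNFRSF11A, the receptor gene for RANK ligand, had 134 and 1550 counts, and the ligand gene TNFSF11 had 0 in both. Of the 13 higher members, BMP4 (73 counts in PC3, 449 in DU145), RUNX1 (1747 and 2572) and CYR61 (3645 and 4927) were higher still in DU145. The others of the 13 had fewer counts in DU145 than in PC3. A link of this list to the bone origin of PC3 was not tested. MSX2 (99 and 5 counts), BMP6 (66 and 15), BMP7 (14 and 0) and the chemokine receptor gene CXCR4 (23 and 3) were lower. Several classical bone genes were near the detection limit in both libraries, with 2 and 0 counts of SPP1 and 1 and 0 of IBSP.

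The developmental pathways Wnt, Notch and Hedgehog were split. Of 58 compared genes 18 were higher in PC3 and 13 were lower, with a median log2 ratio of 0.23 (0.03 with no filter and 0.70 with a filter at 5 CPM). The Wnt receptor gene FZD8 had 107 LNCAP counts, 8312 in PC3 and 10 in DU145, and the stem cell receptor gene LGR5 had 0, 555 and 0, at least 189-fold higher in PC3. WNT7A had 1, 488 and 15. On the lower side, LEF1, a nuclear effector gene of Wnt, had 42 counts in LNCAP and 0 in PC3, the Wnt feedback inhibitor gene NKD1 148 and 0, and AXIN2, a common Wnt target, was not called at 96 and 61.

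In the Notch pathway the receptor gene NOTCH3 had 950 LNCAP counts, 24 in PC3 and 706 in DU145, 38.7-fold lower in PC3 (25.9 to 60.7). The ligand gene JAG2 had 2449, 93 and 1953, 25.7-fold lower (20.9 to 32.0), whereas the ligand gene JAG1 was higher at 1094 and 4323 in LNCAP and PC3. In the Hedgehog pathway the factor genes GLI2 (0, 361 and 537 counts) and GLI3 (123, 2606 and 48) and the signal transducer gene SMO (17 and 457 in LNCAP and PC3) were higher. The receptor gene PTCH1, itself a Hedgehog target, was lower at 906 and 168 counts, 5.27-fold (4.47 to 6.25), and GLI1 stood at 9 and 2.

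Cell attachment genes were also apart. Of 60 compared collagen, laminin and integrin genes, 29 were higher in PC3 (48.3%) and 9 lower, with a median log2 ratio of 1.97, or 1.61 with bounds. This median depended on the filter on low counts and was 0.49 with none, and 1.19 on FPKM with 0.1 added. COL6A3 (chromosome 2, 237324003 to 237414375), a chain of microfibrillar collagen, had 2 LNCAP counts, 3898 in PC3 and 0 in DU145, 1993-fold higher in PC3 (551 to 16465). Its partner chains COL6A1 and COL6A2 had 1745 and 746 counts in LNCAP and 12103 and 9601 in PC3. The basement membrane chain COL4A1 had 0, 972 and 356 counts, with COL4A2 overlapping it on the opposite strand. ITGA3, a laminin receptor subunit gene, had 277, 20047 and 18062, 74.0-fold higher in PC3 (65.7 to 83.6). The laminin gene LAMC1 went the other way from a high level, with 29748, 2354 and 6664 counts, 12.4-fold lower (11.8 to 12.9), and the integrin gene ITGAV had 4606 and 1041.

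Tight junctions seal epithelial sheets, and more of their genes were lower than higher. Of 28 compared claudin and other tight junction genes, 16 were lower in PC3 (57.1%) and 4 were higher, with a median log2 ratio of -2.40 (-1.47 with no filter). CLDN7 had 3555 LNCAP counts, 31 in PC3 and 251 in DU145, 112-fold lower in PC3 (78.9 to 165). The polarity gene CRB3 had 582, 6 and 367, 94.8-fold lower (43.3 to 259.5). The occludin gene OCLN had 2311, 137 and 592, 16.5-fold lower (13.9 to 19.7), and CLDN8 had 207 counts in LNCAP and none elsewhere. The claudins that were higher were CLDN11 (3 counts in LNCAP, 521 in PC3), CLDN1 (44 and 1145), CLDN14 (10 and 63) and CLDN9 (8 and 35). The scaffold gene TJP1 was level at 2656 and 3017.

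Keratins, the intermediate filaments of epithelia, went both ways. Of 55 keratin genes 22 were compared, 7 were higher in PC3 and 7 lower, with a median log2 ratio of -0.13. With no filter and with a filter at 5 CPM the median was 0.03, the value that equal counts give. KRT81 (chromosome 12, 52285913 to 52291534), a hair-type keratin gene, had 0 LNCAP counts, 34225 in PC3 and 144 in DU145. It was at least 11668-fold higher and had the largest bound of the named protein-coding genes. KRT81 lies inside KRT86 on the opposite strand and is a near copy of it in sequence, and KRT86 had 4, 510 and 141 counts, so the split of reads between them is uncertain. KRT7 had 11, 2570 and 24405, and KRT75 14, 1104 and 0. KRT6C (165 and 1 counts), KRT36 (64 and 0) and KRT2 (38 and 0) were lower, and the simple epithelial keratins KRT8 (6954 and 3937) and KRT18 (3620 and 2897) were not called.

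S100 proteins and annexins bind calcium, many of them at the cell membrane, and 13 of 24 compared genes were higher in PC3 and 1 was lower (median log2 ratio 2.32, and 5.20 with a filter at 5 CPM). S100A16 had 19, 7554 and 5535 counts in LNCAP, PC3 and DU145, 407-fold higher in PC3 (260.2 to 676). The annexin gene ANXA3 had 0, 1503 and 3307, at least 512-fold higher, and S100A10 had 6, 2121 and 6440. S100P, which was lower, had 873, 67 and 3.

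Axon guidance genes, which encode secreted and surface cues of cell migration, were higher for 22 of 64 compared members and lower for 11, with a median log2 ratio of 0.66 (0.32 with no filter). SLIT2, a repulsive ligand gene, had 6, 2728 and 12 counts, 465-fold higher in PC3 (213 to 1268). SEMA3D had 0, 1001 and 2, at least 341-fold higher. The receptor gene NRP1 had 2150 counts in LNCAP and 16012 in PC3. The transmembrane semaphorins SEMA4A (1221 and 12 counts, 99.5-fold, 56.7 to 193) and SEMA6A (1613 and 37, 42.6-fold, 30.8 to 60.8) were lower. Secreted ligand genes and membrane-bound ones were found on both sides, since the secreted SEMA3C had 3744 counts in LNCAP and 661 in PC3.

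**Figure D4:**
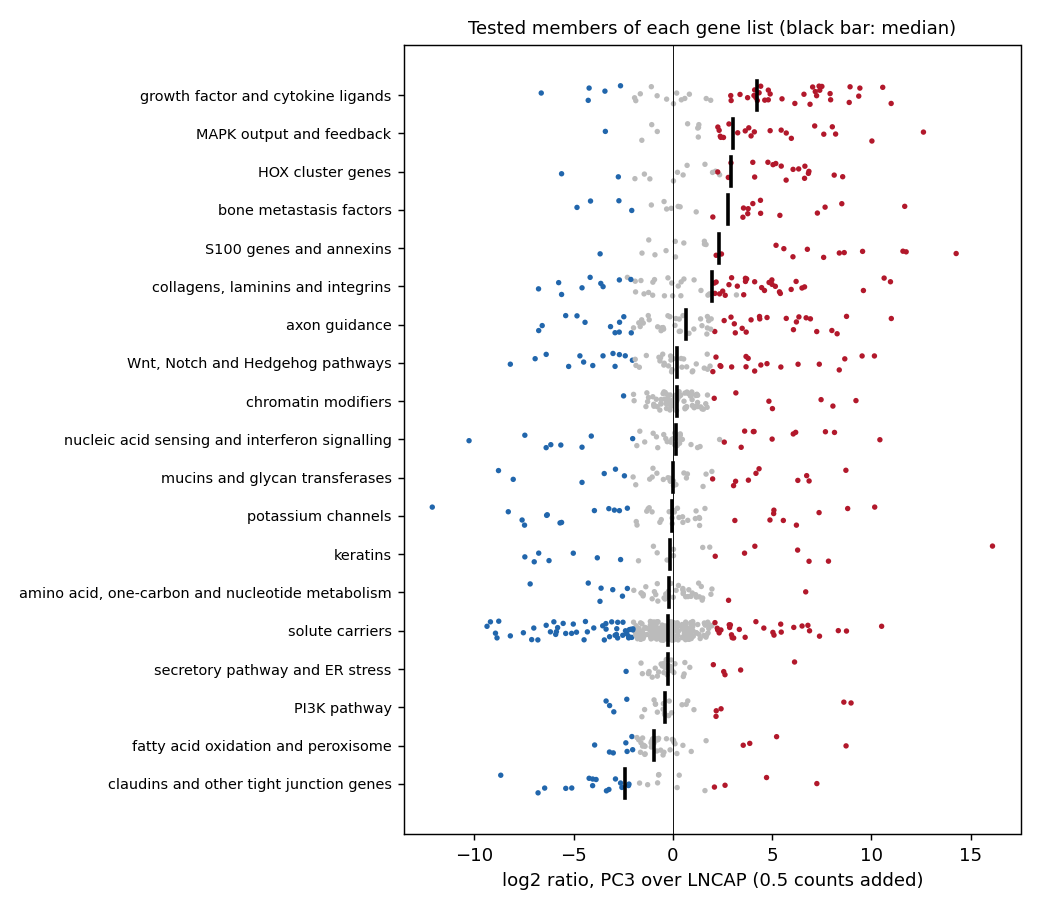
log2 ratio of PC3 over LNCAP for each compared member of the gene lists shown, with 0.5 counts added; points are genes (red at least 4-fold higher in PC3, blue lower, grey not called), black bars are list medians and the vertical line marks a ratio of 1. The medians run from -2.40 for tight junction genes to 4.22 for growth factor and cytokine ligands.

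Sensing of foreign nucleic acid and interferon signalling was mixed, with 11 of 44 compared genes higher in PC3 and 8 lower (median log2 ratio 0.16, 0.10 with bounds or 0.33 with no filter). The DNA sensor gene CGAS had 1, 301 and 577 counts in LNCAP, PC3 and DU145, and its adaptor gene TMEM173, which encodes STING, had 32 counts in LNCAP and 389 in PC3. Of the RNA sensor genes, IFIH1 (431 and 24 counts), TLR3 (108 and 1) and DHX58 (89 and 0) were lower, while DDX58, which encodes RIG-I, had 180 and 228 and was not called. The kinase gene JAK1 was higher at 147 and 1566, 10.9-fold (9.20 to 13.0), and STAT6 at 11 and 818. STAT5A and STAT5B were lower, with 25 and 0 counts and 627 and 0. GSDMD, the pore-forming gasdermin of inflammatory cell death, had 6, 1792 and 1073 counts, 305-fold higher in PC3 (140.1 to 833). CGAS, JAK1 and STAT6 overlap other genes on the opposite strand.

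Metabolic lists were less divided. In amino acid, one-carbon and nucleotide metabolism 2 of 49 genes were higher in PC3 and 7 lower, with a median log2 ratio of -0.22 (-0.08 on FPKM with 0.1 added). ASS1, which makes arginine's precursor and without which cells need external arginine, had 1858, 12 and 359 counts, 151-fold lower in PC3 (86.5 to 294). The polyamine genes SAT1 (10797 and 551 counts, 19.2-fold, 17.6 to 20.9) and AMD1 (21439 and 1712, 12.2-fold, 11.7 to 12.9) were lower from high levels, while ODC1, the entry enzyme of polyamine synthesis, had 7301 and 20228 and was not called. In fatty acid oxidation and peroxisome genes 4 of 46 were higher and 7 lower, with a median log2 ratio of -0.93. The lipid-sensing receptor gene PPARG was higher, with 63, 2321 and 305 counts, 37.7-fold (29.3 to 49.2). Of the 4 acyl-CoA synthetase genes compared 3 were lower, ACSL1 at 4412 and 472 counts, ACSL3 at 8089 and 1894 and ACSL5 at 69 and 8, and ACSL4 was higher at 124 and 1420. AMACR, a racemase gene used as a prostate cancer stain, was 4.95-fold lower (4.13 to 5.96).

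Transport genes were called in both directions, more often lower than higher in PC3. Of 252 compared solute carriers 27 were higher in PC3 (10.7%) and 47 lower (18.7%), beside 13.0% and 13.3% of all genes. The median log2 ratio of these carriers was -0.25 (-0.41 with no filter and -0.16 with a filter at 5 CPM). SLC7A5, the large neutral amino acid transporter gene, had 110, 9829 and 13199 counts, 91.4-fold higher in PC3 (75.7 to 111), and the glutamine transporter gene SLC38A2 had 6493, 46154 and 12152. The zinc transporter gene SLC30A4 had 4361, 59 and 141, 72.3-fold lower (55.9 to 95.1). SLC45A3, which encodes prostein, had 4577, 283 and 158, 15.8-fold lower (14.0 to 17.9), and SLC44A4 had 2082, 3 and 1. Potassium channels were higher for 9 of 46 compared genes (19.6%) and lower for 13 (28.3%), with a median log2 ratio of -0.03, or 0.03 with no filter. For 7 of the 9 LNCAP had at most 3 counts, and for 11 of the 13 PC3 had at most 3. KCNN2 had 2264 counts in LNCAP and 0 in PC3, and its calcium-activated relative KCNN4 had 1 and 1683.

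Mucins and the transferases that build their sugars were higher for 10 of 36 genes and lower for 6 (median log2 ratio 0.03, or -0.04 with a filter at 5 CPM). GCNT1, a branching enzyme gene, had 673 counts in LNCAP and 1 in PC3, but lies opposite PRUNE2, and the sialyltransferase gene ST6GALNAC1 had 1208 and 4. FUT8, which adds core fucose, was higher at 235 and 4666 counts, and GALNT6 at 2 and 1026. In the secretory pathway and ER stress list 5 of 34 genes were higher and 1 was lower (median log2 ratio -0.26). The stress response genes TRIB3 (1451 and 8379 counts, 5.91-fold, 5.59 to 6.25), CHAC1 (170 and 1777) and DDIT3 (130 and 524) were among the 5, while the chaperone gene HSPA5 had 14754 and 7811 and was not called.

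Chromatin modifiers were the most alike of these lists in calls, with 7 of 83 higher in PC3, 1 lower and 75 not called (median log2 ratio 0.20). The remodeller gene SMARCA1 had 4, 2625 and 1792 counts, 671-fold higher in PC3 (262 to 2465), and DPF3, an accessory subunit gene of the BAF complex, had 13, 2331 and 15, 183-fold higher (107 to 345). The organiser gene SATB1 had 1 and 391. CHD7 was lower at 744, 130 and 950. The Polycomb methyltransferase gene EZH2, at 517 and 980, and the BAF ATPase gene SMARCA4, at 4040 and 7740, were not called.

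Transcription factors as a class were called about as often as other genes, with 166 of 1240 compared factors higher in PC3 (13.4%) and 171 lower (13.8%). Individual factors ranked among the largest differences. NR2F1 (chromosome 5, 93583224 to 93594615), an orphan nuclear receptor gene, had 1 LNCAP count, 6608 in PC3 and 46 in DU145, 6758-fold higher in PC3 (1213 to 266980). FOXL1, a forkhead factor gene, had 1, 1522 and 50, and TFCP2 had 0, 1074 and 878. KLF12 had 0, 855 and 327. MAF (chromosome 16, 79585843 to 79600714), a basic leucine zipper factor gene, had 2809 counts in LNCAP and 0 in both other libraries, at least 916-fold lower in PC3. PEG3, an imprinted zinc finger gene, had 8628, 5 and 2, 1687-fold lower (723 to 5198). ZBTB16 had 954 counts in LNCAP alone.

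By family, homeobox genes leaned towards PC3 mainly through their HOX clusters, the gene arrays that set position along the body axis. Among 30 homeobox family members in the HOX clusters, 17 were higher in PC3 and 2 lower (median log2 ratio 2.86, or 2.53 with bounds). Of 80 homeobox genes elsewhere 19 were higher and 16 lower (median 0.03). The higher and lower shares elsewhere were both above those of all genes (13.0% and 13.3%). Homeobox genes outside the clusters were therefore also called more often than all genes, in both directions. In the list of HOX cluster genes, 18 of 31 compared members were higher and 2 lower, and for 11 of the 18 LNCAP had at most 3 counts. HOXA13 had 2, 682 and 37 counts, 349-fold higher in PC3 (96.2 to 2886), HOXA9 had 5, 533 and 41, and HOXB3 2, 245 and 204. HOXC12 (74 and 1 counts) and HOXC9 (92 and 13) were lower, and HOXB13, a prostate lineage factor, was level between LNCAP and PC3 at 5140 and 5909. Many HOXA gene models overlap their neighbours, HOXA3 and HOXA9 among them.

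Zinc finger genes divided by chromosome. The C2H2 zinc finger family is the largest human factor family, and many members lie in clusters on chromosome 19. Of 248 compared members on chromosome 19, 6 were higher in PC3 and 54 lower (21.8%; median log2 ratio -0.29), whereas of 320 elsewhere 42 were higher and 30 lower (median 0.23). Of the 54, 12 had 0 counts in PC3 and 22 had at most 3. ZNF100 (chromosome 19, 21722766 to 21767628) had 400 LNCAP counts, 0 in PC3 and 63 in DU145, at least 130.4-fold lower, and ZNF728 had 271, 0 and 0. ZNF568 had 244 and 0 counts in LNCAP and PC3, and ZNF793 363 and 1. ZNF439 went the other way, with 0 and 188. Zinc finger genes in these clusters resemble each other, so reads could be shared. ZNF568, ZNF793 and ZNF439 were chosen after their values were seen.

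Among the protein-coding genes with the largest near bounds beyond those above, 10 had at most 2 counts in LNCAP. APOBEC3C (chromosome 22, 39014083 to 39020352), a cytidine deaminase gene, had 0 LNCAP counts, 8998 in PC3 and 811 in DU145, at least 3068-fold higher. RGS2, a regulator gene of G protein signalling, had 0, 4576 and 93, and the lysophosphatidic acid receptor gene LPAR1 0, 3452 and 620. CALB1, the calbindin gene, had 0, 2968 and 8, the matrix gene ABI3BP 0, 4231 and 3, and the trypsinogen gene PRSS3 0, 3313 and 13. PLCXD3 had 1, 3496 and 0, SYT16, a synaptotagmin family gene, 1, 4761 and 46, ADAM19, a metalloprotease gene, 0, 1718 and 797, and ALDH7A1, a lysine degradation enzyme gene, 2, 3458 and 1684.

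On the lower side, PRUNE2 (chromosome 9, 76611376 to 76906087) had 17670 LNCAP counts, 0 in PC3 and 134 in DU145, at least 5759-fold lower in PC3. It contains the prostate cancer transcript PCA3 on its opposite strand. Several genes with few or no PC3 counts are known from neurons. SYT4, a synaptotagmin gene, had 7166, 0 and 0, GPR158, an orphan receptor gene, 6883, 0 and 0, and the axonal motor gene KIF1A 2886, 0 and 203. NETO1, a glutamate receptor accessory gene, had 5647, 4 and 0. The extracellular matrix gene SPON2 had 25686, 16 and 99 counts, 1570-fold lower (966 to 2747), and MME, which encodes the membrane peptidase neprilysin, 18036, 10 and 45, 1764-fold lower (959 to 3678). The fatty acid elongase gene ELOVL7 had 3100, 0 and 246, the serine protease gene HPN 2081, 0 and 4, and the defensin gene DEFB132 2144, 0 and 0.

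The lincRNA genes were called more often than protein-coding genes. Of 956 compared lincRNA genes 23.0% were higher in PC3 and 24.5% lower, against 12.4% and 11.5% of 14135 protein-coding genes. Antisense genes (15.2% and 18.7% of 1147) and processed transcripts (13.5% and 14.5% of 193) were closer to all genes. Some smaller non-coding classes were not, with 24.1% and 7.41% of 54 sense overlapping genes and 5.0% and 30.0% of 20 snoRNA genes. The files hold 7629 lincRNA genes, and one that reached 1 CPM only through the library where it was high had to differ. How far this raised the lincRNA shares was not tested. Unprocessed pseudogenes were lower more often than higher, 30.1% against 9.09% of 143. LNCAROD had 0 LNCAP counts, 1498 in PC3 and 0 in DU145, at least 511-fold higher in PC3. AL161431.1 had 0, 1261 and 3430, and LINC00857 0, 1058 and 678. After MIR99AHG, the lincRNA genes with the largest bounds on the lower side were AL035661.1 (629, 0 and 0), LINC02197 (381, 0 and 0) and LINC01667 (250, 0 and 0).

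Promoter sequences were read for motifs in windows from 250 bases before to 50 after each RefSeq start (GRCh38.p14). Of 14112 compared protein-coding genes off the Y and mitochondrial chromosomes, 11492 (81.4%) matched a window, and a gene can have several windows. The AP-1 motif TGANTCA, bound by FOS and JUN dimers, was found on either strand in 7.99% of 2141 windows of genes higher in PC3. It was in 5.80% of 1792 windows of lower genes, 5.34% of windows of all compared genes and 7.71% of all 35116 windows in the table. The TATA box TATAAA was in 9.72% of windows of higher genes and 10.4% of lower ones, beside 6.82% of compared and 11.5% of all windows. The TEAD motif GGAATG was in 277 of the 2141 windows of higher genes (12.9%), 197 of the 1792 of lower genes, 11.4% of compared and 14.0% of all windows. The FOX motif TGTTTAC was in 2.85% of windows of higher genes, 3.24% of lower, 2.67% of compared and 3.42% of all windows, and the STAT motif TTCNNNGAA in 6.87%, 6.86%, 6.29% and 7.66%. The GRHL motif AACCNGTT was in 1.87%, 2.01%, 1.51% and 1.73%, and the NF-kB motif in 2.06%, 2.62%, 2.09% and 1.91%. The counted FST model begins before the RefSeq start used for its window, so a match before that start can lie inside the model. This promoter is shown as an example of a gene with an AP-1 match, in capitals. The first base of the match lies 160 bases before the RefSeq start and inside the counted model (chr5:53480379-53480678, plus strand).
FST: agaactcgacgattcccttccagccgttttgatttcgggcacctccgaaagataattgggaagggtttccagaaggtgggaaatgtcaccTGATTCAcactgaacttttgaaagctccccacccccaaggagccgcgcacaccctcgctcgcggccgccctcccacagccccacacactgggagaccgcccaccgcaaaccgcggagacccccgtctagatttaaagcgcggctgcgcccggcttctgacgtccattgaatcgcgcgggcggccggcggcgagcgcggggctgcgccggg
The promoter of MAF, silent in PC3, is shown with its TATA box in capitals, whose first base lies 30 bases before the start (chr16:79600688-79600987, minus strand).
MAF: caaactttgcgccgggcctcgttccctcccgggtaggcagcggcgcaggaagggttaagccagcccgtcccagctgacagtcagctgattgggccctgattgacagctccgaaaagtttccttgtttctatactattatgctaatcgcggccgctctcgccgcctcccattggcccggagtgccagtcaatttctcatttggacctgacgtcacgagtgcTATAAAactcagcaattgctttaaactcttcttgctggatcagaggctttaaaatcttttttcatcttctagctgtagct
A match is a description of these letters, and binding was not measured.

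Silence in 1 library was sometimes shared by neighbours. Of 10516 protein-coding genes at 5 normalised CPM or more in LNCAP, 274 (2.61%) had at most 3 counts in PC3. In 5 places 3 or more consecutive such genes were silent, 20 genes in all. The longest run held 7 genes on chromosome 17 (42101404 to 42522611). Beyond the members around STAT3 it took in DHX58 (89 counts in LNCAP, 0 in PC3, 25 in DU145), GHDC (226, 0 and 259), STAT5B (627, 0 and 1186) and ATP6V0A1 (1327, 3 and 1329). DU145 had counts for all 7. DHX58 lies just outside the block of models from KAT2A onward and extends the silent stretch to its left.

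The other runs in PC3 differed in how DU145 read them. On chromosome 19, PGLYRP2, CYP4F8 and CYP4F11 (15468645 to 15934867) had 156, 397 and 343 counts in LNCAP and 0 in PC3, and DU145 had 0, 0 and 212. The kallikrein genes KLK3, KLK2 and KLK4 (50854915 to 50910738) had 0, 0 and 1 counts in PC3 and 0 in DU145. On chromosome 4 the glucuronidation genes UGT2B17, UGT2B15, UGT2B11 and UGT2B28 (68537184 to 69295050) had 552, 358, 597 and 241 counts in LNCAP and 0 in both other libraries. Also on chromosome 4, SORBS2, TLR3 and CYP4V2 (185585444 to 186213456) had 300, 108 and 391 counts in LNCAP, 1 each in PC3, and 3, 32 and 145 in DU145. The UGT2B and CYP4F genes have close copies, so their single values are uncertain.

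The other way round, 331 of 10666 genes (3.10%) were silent in LNCAP, with 6 runs of 19 genes. On chromosome 13 the ion channel gene NALCN, ITGBL1 and FGF14 (101053776 to 102402457) had 0 counts in LNCAP and 146, 400 and 85 in PC3. Their DU145 counts were 182, 40 and 5. On chromosome 2 the sodium channel genes SCN3A and SCN2A and the neighbouring CSRNP3 (165087522 to 165689407) had 0, 1 and 3 counts in LNCAP and 232, 159 and 578 in PC3. In DU145 they had 5, 5 and 38. On chromosome 3, VEPH1, PTX3, a soluble pattern recognition gene, and PQLC2L had 1, 0 and 0 in LNCAP. They had 253, 1440 and 84 in PC3 and 59, 3 and 55 in DU145. On chromosome 4 the chemokine genes CXCL6, CXCL1 and CXCL5 had 310, 536 and 80 counts in PC3 and 24, 44 and 41 in DU145. The nearby growth factor genes EPGN, EREG and AREG had 80, 82 and 2851 in PC3 and 2, 2049 and 1609 in DU145. On chromosome 5 the protocadherin genes PCDHA10, PCDHA11, PCDHA12 and PCDHAC1 had 102, 210, 252 and 514 in PC3 and 51, 64, 141 and 196 in DU145. These models share their last exons.

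Ratios also varied with position over longer stretches. In 284 bins of 10 Mb, each with at least 10 protein-coding genes at a mean of 5 CPM or more, the median of bin medians was 0.02 on the log2 scale. In 12 bins the median was 1 or more and in 6 it was -1 or less. Of all 11078 protein-coding genes at that level, 10.1% were called higher in PC3 and 7.67% lower. The lowest bin was the first 10 Mb of chromosome 8, at -1.93, where 7 of 14 genes were lower in PC3 and none was higher, followed by 50 to 60 Mb of the same chromosome at -1.61, with 5 of 16 lower and none higher. The bin from 10 to 20 Mb stood at -1.14. Also on chromosome 8, the bin from 110 to 120 Mb was high, at 1.42. Chromosome 10 held 4 of the high bins, led by 30 to 40 Mb at 1.56, where 9 of 20 genes were higher and none was lower, and the bins from 50 to 80 Mb followed at 1.37, 1.23 and 1.18. On chromosome 19 the bin from 20 to 30 Mb, which holds zinc finger clusters, stood at -1.31, with 9 of 22 genes lower. By whole chromosome, medians ran from -0.57 for chromosome 9 to 0.73 for chromosome 21, beside 0.04 for all 11078 genes placed. Copy number was not measured.

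**Figure D5:**
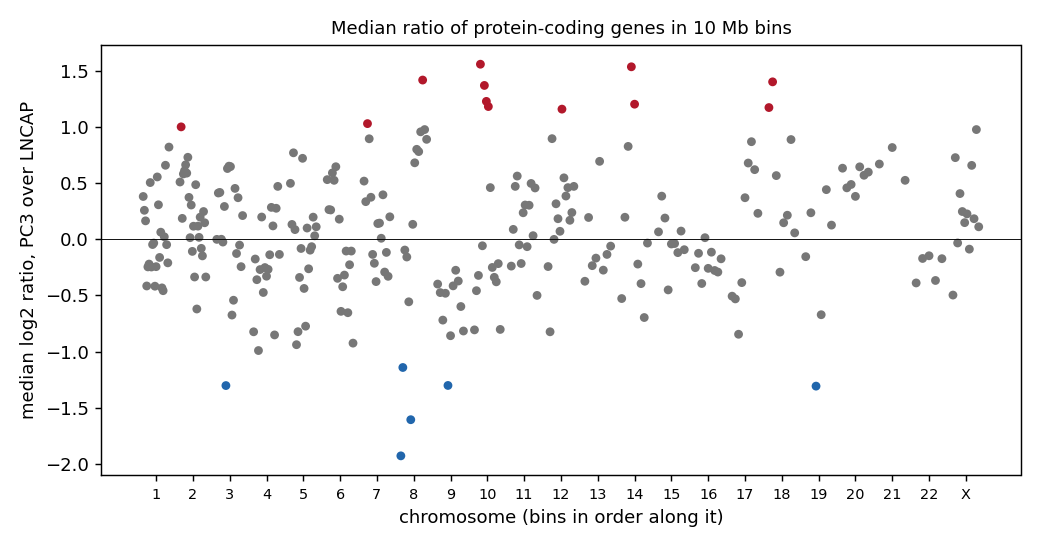
Median log2 ratio of PC3 over LNCAP for protein-coding genes in bins of 10 Mb, in order along each chromosome, with at least 10 genes a bin; red points are bins at 1 or more and blue points bins at -1 or less. Of 284 bins 12 were at or above 1, 4 of them on chromosome 10, and 6 at or below -1, 3 of them on chromosome 8.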

How the data were processed

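RNA was sequenced from 3 cell lines with 1 library each, and samples were grouped by their cell line label. The authors deposited raw read counts per gene as whole numbers, and FPKM values per gene, which equal those counts divided by gene length and by 1 constant per library. Cuffdiff 2.1.1, Cufflinks 2.1.1, TopHat2 2.0.9 and Bowtie2 2.0.6 are listed in the submitters' processing notes, without roles. What is not given in the sources used here is the counting program, its strand option and the reference build. All 58735 gene coordinates in the files matched GENCODE release 29 (GRCh38).

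TMM factors (edgeR 4.0.16, R 4.3.3) of 1.016 for LNCAP, 0.998 for PC3 and 0.987 for DU145 were computed on genes at 1 CPM or more in any library. Ratios, exact 95% counting intervals and medians were computed with scipy 1.17.1, numpy 2.4.6 and pandas 2.3.3 in Python 3.11.15, and figures drawn with matplotlib 3.10.9. A call needed a log2 ratio of at least 2 in size with 0.5 counts added. A count of 0 allows up to 3 counts, which is 0.192 normalised CPM in LNCAP and 0.196 in PC3. Genes at 3 counts or fewer in both libraries get no fold. Reads are not independent molecules, so intervals and bounds cover counting error only. The calls were tested on simulated counts.

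Members, gene lists and motifs were chosen with earlier results of these data known. Named genes had the largest near bounds of the interval, without Y-linked, mitochondrial or ribosomal protein genes and without genes already described for the series. They were 15 protein-coding genes, 5 factors and 4 lincRNA genes each way, up to 3 members of each list each way, members of silent runs, and genes that identify the lines. Other list members, and the microRNA hosts, were named after their values were seen. Alternatives were size factors of DESeq2 1.42.0, library totals, no filter, a 5 CPM filter, 5 counts added, FPKM with 0.1 added, and other limits for runs and bins. Some genes and 1 list are not reported here.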

Additional observations from a re-analysis of the deposited data

How the results depend on the processing

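No paired analysis was possible because each line has 1 library and the labels carry no replicate numbers. Each list median and the counts of members were recomputed under 6 alternatives. Of 240 counts 225 stayed within 1.5 times. With no filter the median log2 ratio fell from 1.97 to 0.49 for collagens, laminins and integrins, from 2.77 to 1.82 for bone metastasis genes, from 0.66 to 0.32 for axon guidance and from 0.23 to 0.03 for Wnt, Notch and Hedgehog genes. It went from -2.40 to -1.47 for tight junction genes, from -0.25 to -0.41 for solute carriers and from 0.16 to 0.33 for sensing genes. With the 5 CPM filter it went from 2.32 to 5.20 for S100 genes and annexins, to 0.70 for Wnt, Notch and Hedgehog genes and to -0.16 for solute carriers. On FPKM it was 1.19 for collagens, laminins and integrins, 1.56 for bone metastasis genes and -0.08 for amino acid metabolism. Medians near 0 for keratins, potassium channels and mucin and glycan genes changed sign between settings, and a median of 0.03 is only the value of equal counts. Of all calls 49.4% were higher in PC3, and 54.9% with a 5 CPM filter. With that filter 1327 genes were lower in PC3, against 2402, and the filter leaves fewer genes to compare. It left 2 lower members among bone metastasis genes, 3 among ligands, 5 among collagens, laminins and integrins, 4 among keratins, 8 among potassium channels and 1 among HOX genes. It left 1 higher member in amino acid metabolism, 2 among tight junction genes and 11 among HOX genes. Without a filter 7 tight junction genes were higher. With library totals 2 chromatin modifiers were lower. With 5 counts added 1 bone metastasis gene was lower. On FPKM with 0.1 added, 1 bone metastasis gene, 3 mucin and glycan genes and 5 sensing genes were lower. Runs silent in PC3 numbered 5, and 3 at 10 CPM or more in LNCAP or 9 at up to 10 counts. Runs silent in LNCAP numbered 6, and 2 or 12. Bins with a median of 1 or more were 4.23% of 10 Mb bins and 2.55% of 20 Mb bins. The cause of the changes other than fewer genes was not tested. Genes at 1 to 3 counts in 1 library have wide intervals.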
